A study of Sus scrofa with 32 samples.

Results

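The livers of runt and control pig fetuses at gestational day 37 were compared, using 8 of the 32 arrays of a study of fetal growth restriction. The 8 arrays were chosen by the title of the sample, 4 from runts and 4 from controls. The runts were the growth-restricted fetuses of day 37 and the controls were the normally grown fetuses of day 37. The other 24 arrays held runts and controls of days 50, 70 and 110, with 4 of each a day. All fetuses, controls included, were carried by artificially inseminated gilts from which 1 uterine horn and 1 ovary had been removed, and the crowding of the remaining horn gave rise to the runts. The protocol describes grown and growth-restricted littermate pairs from 4 gilts a day, with RNA from individual livers, and does not state which fetus is whose littermate or its sex. No uncrowded pregnancy is among the samples used here, so runts were compared with fetuses that also came from crowded uteri and not with those of intact gilts.

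The liver of an early fetus has 2 occupations. Its hepatoblasts, the precursors of hepatocytes and bile duct cells, begin to secrete plasma proteins, while blood stem cells that have settled between them make red cells, granulocytes and platelets. Albumin, made by hepatocytes, rises as these cells mature, whereas its relative alpha-fetoprotein is abundant in the fetus and declines after birth. Growth of the fetus depends on insulin-like growth factors (IGFs) and the proteins that bind them in blood, and nutrient restriction is known to raise some of these binding proteins in fetal liver.

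Each array was read as a fluorescence intensity per spot. A level is the log2 of that intensity minus the 75th percentile of its array, which puts 0 at that percentile, and a difference of 1 is a 2-fold difference in signal. Levels of different genes come from different probes and are not compared with each other. Between 55.1% and 59.6% of spots were well above background on the runt arrays, against 56.3% to 65.3% on the control arrays, and no spot was saturated. The intensity at the 75th percentile was 277 to 397 in runts and 252 to 413 in controls. Across probes a runt array correlated with a control array at 0.967 to 0.984, runt arrays with each other at 0.963 to 0.980, and control arrays with each other at 0.975 to 0.983. The 3 ranges overlapped.

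Of the markers of hepatocytes and hepatoblasts, 12 were measured and 11 of them were well above background on all 8 arrays, among them ALB, AFP, TTR, APOA1 and HNF4A. Of the 12, 6 lay above 0 and 6 below, with a median difference of 0.00. The list's mean level was 3.33 to 3.93 in runts and 3.80 to 4.19 in controls, and the markers of the labelled tissue were thus present on every array. In whole tissue, fewer cells of a type and less RNA per cell cannot be told apart.

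No feature passed the test between runt and control livers of day 37 after correction for the number of features tested. Of 28670 features (a gene, or a probe without a gene symbol), 0 passed an adjusted p under 0.05 in limma, a background of 0%, and the smallest adjusted p was 0.117. At an unadjusted p under 0.05 there were 726 features, or 2.53%, of which 385 (1.34%) were higher and 341 (1.19%) lower in runts. The share of 2.53% is below the one that this threshold gives by chance. With replicate number as a block the same count was 1196, and 0 again passed the adjusted threshold. The 4 runt arrays all lay above the 4 control arrays for 0.684% of the features and all below for 141 features (0.492%). The median 95% confidence interval of a difference reached 0.48 to either side on the log2 scale. Differences of at least 2-fold were measured in 349 features, 131 higher and 218 lower in runts. Because nothing passed, the genes below are described by their levels, and none of them is a call.

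**Figure D1:**
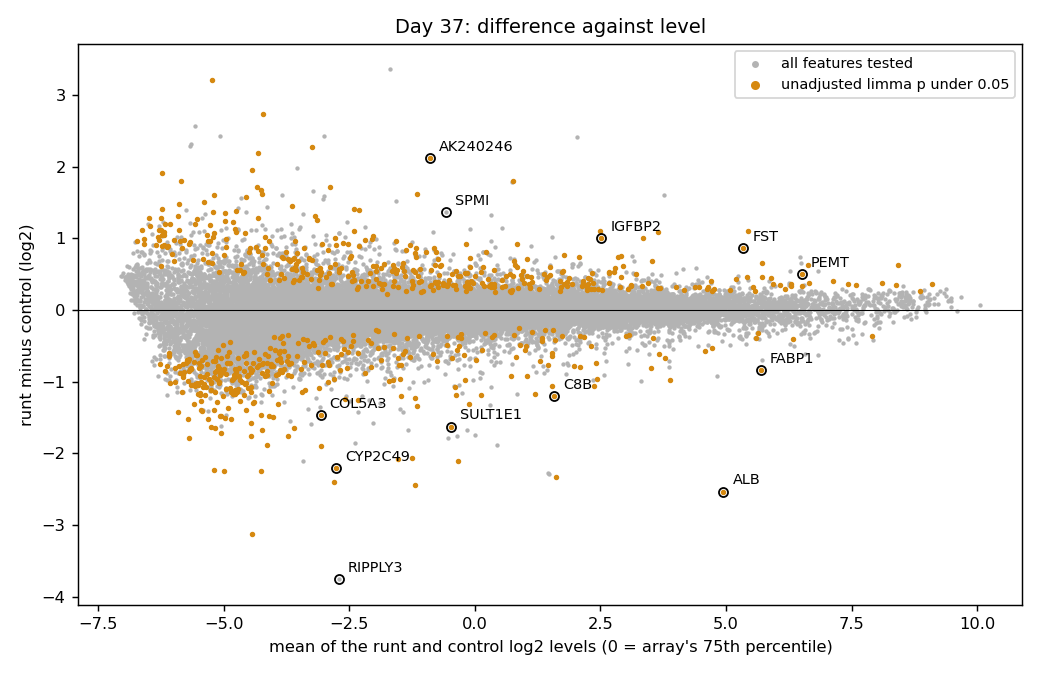
Difference between runt and control livers at day 37 (vertical axis, log2) against the mean of both groups' levels (horizontal axis, log2 relative to the 75th percentile of the array) for the 28670 features tested. Orange points have an unadjusted limma p under 0.05 and circles mark features described in the text. Albumin (ALB) lies 2.53 below 0 at a level where nearly all other features lie close to 0.

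The gene with the smallest p among the 1596 features with a symbol was ALB (NM_001005208), serum albumin, the main protein of blood plasma. Its levels were 3.56, 4.56, 5.04 and 1.56 in the runt livers of replicates 1 to 4, against 7.11, 6.31, 5.70 and 5.73 in the control livers. Every runt lay below every control, and the runts spread over a wider range. The mean was 3.68 ± 1.54 in runts and 6.22 ± 0.66 in controls (SD, n = 4 each), a difference of -2.53 (SE 0.59, 95% interval -3.74 to -1.33) that makes the signal 5.79-fold lower in runts (adjusted p = 0.777 in limma). Another ALB probe gave the same order of groups, with levels of 1.20, 2.48, 3.52 and 0.29 in runts and 5.02, 4.00, 4.71 and 4.11 in controls, a difference of -2.59 (SE 0.63). Runt replicates 1 and 4 had the lowest ALB by both probes. Without runt replicate 4 the difference was -1.83.

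The arrays came from 8 slides, 1 array of day 37 on each. Slides 1 to 3 held runt replicates 3 and 4 and control replicate 4, and slides 4 to 8 held the other 5 arrays. Arrays of the first set lay together at one end of the first principal component of the 8 arrays (32.2% of variance), with runt replicate 2 next to them, and runt replicate 1 lay at the other end. The component did not separate runts from controls, nor did the second (16.9%). The ALB difference was -2.32 within slides 4 to 9 and -2.37 with slide as a block. Slides 1 to 3 alone gave -2.43, which rests on 1 control at 5.73 and on runts at 5.04 and 1.56.

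**Figure D2:**
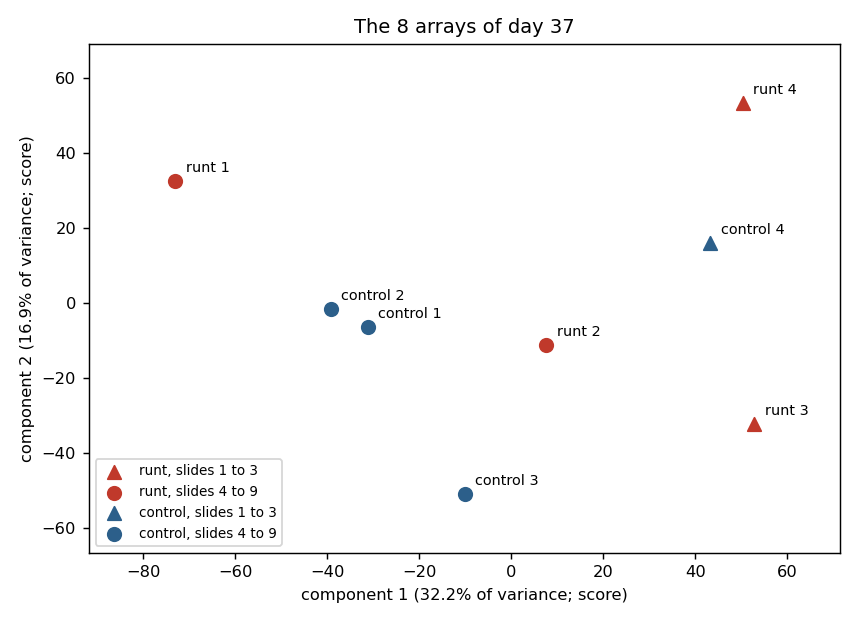
Scores of the 8 arrays of day 37 on the first principal component (horizontal axis, 32.2% of variance) and the second (vertical axis, 16.9%), with runts in red and controls in blue. Triangles are arrays on slides 1 to 3 and circles are arrays on slides 4 to 9. Runts and controls are mixed on both axes, and the triangles lie together on the right.

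By the rule for naming genes, 10 genes were taken in each direction. They were those with the smallest p among genes with a symbol whose 4 runt arrays all lay on one side of the 4 control arrays and that were well above background on at least 3 of 4 arrays of the higher group. Such separation, whatever the signal over background, was measured for 20 of the 1596 genes above the controls (1.25%) and for 12 below (0.752%). Neither share is larger than a random division of the arrays into 4 and 4 would give. Separation alone therefore does not mark a gene as different. Beside ALB, the genes of liver metabolism among those lower in runts were FABP1 and CYP2C49. FABP1 (NM_001004046), the liver fatty acid binding protein that carries fatty acids inside the cell, had levels of 5.19, 5.81, 5.79 and 4.31 in runts, against 6.09, 6.26, 6.17 and 5.94 in controls. Runts 1 and 4 were the lowest, as for ALB. The share of all features with such a split was not counted. On the first principal component runt 1 lay at -73.0 and runt 4 at 50.2. The 4 FABP1 controls were tightly grouped, and the FABP1 difference was -0.84 (SE 0.35, 95% interval -1.55 to -0.13). Without runt replicate 4 it was -0.52. CYP2C49 (NM_214420), a cytochrome P450 of the pig that oxidizes drugs and steroids, had levels of -2.87, -6.37, -2.33 and -3.90 in runts and -1.83, -0.85, -2.04 and -1.90 in controls. It was well above background on 3 runt arrays and all 4 control arrays, with the lowest value in runt replicate 2, and its difference was -2.21 (SE 0.89), or -1.38 without that runt. A further CYP2C49 probe had a difference of -1.52 (SE 0.63). For the first probe, slides 1 to 3 alone gave -1.21 and slides 4 to 9 alone gave -3.04. The normexp background correction, which models signal over local background and was run with an offset of 50, gave -0.49. How far the offset moved this value was not tested.

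The other genes lower in all 4 runts included those of transcriptional regulators, a secreted enzyme and signalling peptides. JUN (NM_213880), a subunit of the transcription factor AP-1 that is induced early in growth responses, had levels of 3.01, 3.36, 3.14 and 2.88 in runts and 3.96, 4.20, 3.59 and 3.91 in controls. Both groups were tight and apart, with a difference of -0.82 (SE 0.28, adjusted p = 1.00). PLA2G7 (NM_001113013), the plasma platelet-activating factor acetylhydrolase that macrophages secrete, had levels of 1.22, 2.44, 2.29 and 2.21 in runts and 2.60, 2.87, 2.92 and 2.73 in controls, a difference of -0.74 (SE 0.26). Runt replicate 1 was the lowest, and without it the difference was -0.47. The cytokine gene IL18 differed by -0.35 (SE 0.17), or -0.19 without runt replicate 4. CALCB, which encodes a peptide of the calcitonin family, differed by -0.66 (SE 0.29), and TIAF1 by -0.16 (SE 0.11). NPPC, the C-type natriuretic peptide precursor, was well above background on 1 runt array and 4 control arrays, with a difference of -0.91 (SE 0.36) that turned to 0.24 under normexp. RIPPLY3, a transcriptional corepressor of the pharyngeal region of the embryo, owed its difference of -3.76 (SE 2.94) to 1 array. The runts were at -4.17, -3.99, -5.48 and -4.74, against -3.97, -3.97, 6.91 and -2.31 in controls, where replicate 3 stood far above the others. Without that control the difference was -1.18. RIPPLY3 varied as widely elsewhere, with an SD of 3.93 to 5.08 in every runt and control group of days 50, 70 and 110.

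The 10 genes above the controls in all 4 runts differed by 0.28 to 0.71. CCR1 (NM_001001621), a chemokine receptor of monocytes and granulocytes, had levels of 0.88, 1.64, 1.89 and 1.14 in runts, against 0.49, 0.86, 0.63 and 0.73 in controls. The lowest runt lay just above the highest control, and the difference was 0.71 (SE 0.24, adjusted p = 1.00). Another CCR1 probe had a difference of 0.82 (SE 0.27). PEMT (NM_214365), the liver enzyme that makes phosphatidylcholine by methylation, had levels of 7.01, 6.37, 6.66 and 7.01 in runts and 6.32, 6.09, 6.37 and 6.27 in controls, a difference of 0.50 (SE 0.20). Runt replicates 1 and 4 were the highest, and runt replicate 2 lay at the level of the highest control. HSD17B2 (NM_001167649), the dehydrogenase that turns estradiol and testosterone into weaker steroids, had levels of 6.40, 6.32, 6.53 and 6.67 in runts and 5.98, 6.14, 6.13 and 6.21 in controls, a difference of 0.37 (SE 0.16). The groups were narrow and did not touch.

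NR1H3 (NM_001101814), the oxysterol receptor LXR-alpha that switches on lipid synthesis, was the most even of the 10 in runts, with levels of 2.50, 2.44, 2.43 and 2.45, against 2.28, 2.11, 2.18 and 2.10 in controls. Its difference was 0.29 (SE 0.13), and 0.28 (SE 0.18) by another probe. SERPING1, the inhibitor of complement component C1, differed by 0.33 (SE 0.16) by the probe with the highest signal and by 0.16 (SE 0.25) by another. HEXA, a lysosomal hexosaminidase subunit, differed by 0.29 (SE 0.13). UGP2, which makes the UDP-glucose used for glycogen, differed by 0.28 (SE 0.15), and its 3 other probes by 0.35, 0.32 and 0.19. AK4, a mitochondrial adenylate kinase, differed by 0.33 (SE 0.17). FAM213B differed by 0.52 (SE 0.24). The receptor tyrosine phosphatase PTPRK differed by 0.28 (SE 0.13), and by 0.01 (SE 0.15) in a further probe. The adjusted p was 1.00 for each of the 10. Under normexp, where the median of all features was 0.14, the 10 differences lay between 0.08 and 0.53. Those of PTPRK (0.08), UGP2 (0.09), AK4 (0.09) and HEXA (0.13) were then no higher than that median.

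**Figure D3:**
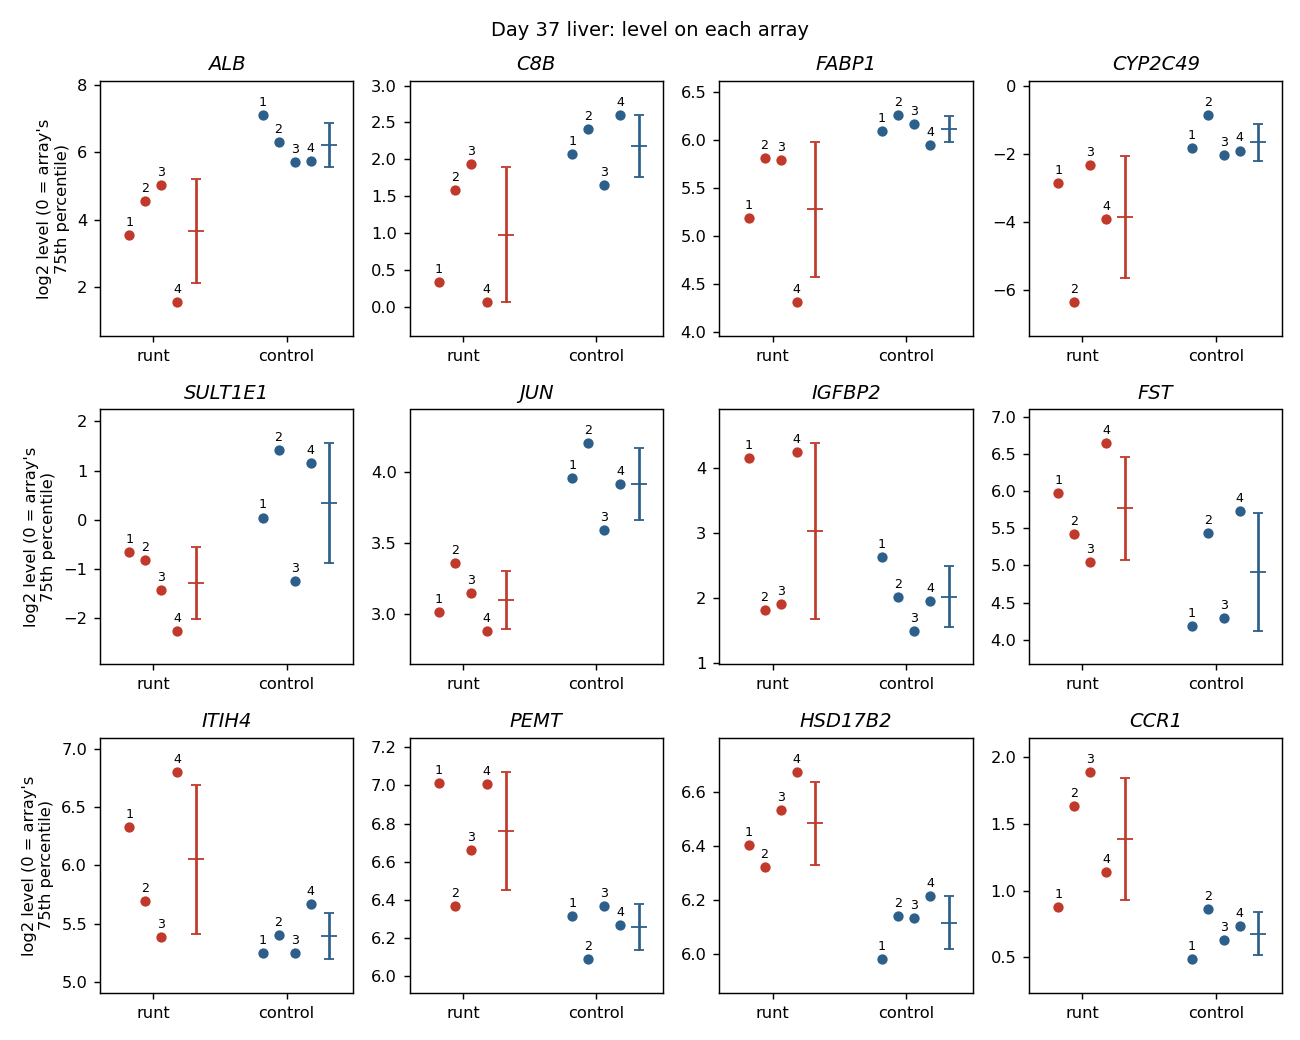
Levels of 12 genes at day 37 on each array (vertical axes, log2 relative to the 75th percentile of the array), with the 4 runts in red on the left and the 4 controls in blue on the right of each panel. Numbers are replicates, and the bar beside each group is its mean with the SD. In runt replicates 1 and 4, ALB, C8B and FABP1 lie low and IGFBP2, ITIH4 and PEMT lie high. Other panels differ: CYP2C49 is lowest in runt 2, SULT1E1 and HSD17B2 do not set runts 1 and 4 apart, and in CCR1 these runts lie nearest the controls. The share of all features with such a split was not counted, and runt 1 correlated with runt 4 at 0.967.

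The secreted proteins of hepatocytes did not follow albumin as a class. Of 25 plasma and coagulation proteins measured, 20 lay above 0 and 5 below, with a median of 0.09, against 47.9% above 0 and a median of -0.01 over all features, and 0 passed the test. The median was 0.04 by quantile normalization and -0.10 under normexp, a setting that itself moves the median of all features to 0.14. ITIH4 (NM_001001537), an inter-alpha-trypsin inhibitor heavy chain, had levels of 6.33, 5.69, 5.38 and 6.80 in runts and 5.25, 5.40, 5.25 and 5.67 in controls, a difference of 0.66 (SE 0.25), or 0.41 without runt replicate 4. SERPINA7, the thyroxine-binding globulin, had levels of 5.61, 4.96, 5.10 and 6.02 in runts and 4.85, 4.95, 5.12 and 5.03 in controls, a difference of 0.43 (SE 0.18) that was 0.23 without runt replicate 4 and 0.09 under normexp. In both genes runt replicates 1 and 4 were the highest of the 8 livers and the other 2 runts lay at or near the controls. PLG, plasminogen, differed by 0.36 (SE 0.14) and overlapped between the groups.

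The other oncofetal and transport proteins of the panel lay close to 0. AFP, alpha-fetoprotein, had levels of 9.85, 9.53, 9.41 and 9.38 in runts and 9.97, 9.43, 9.21 and 9.07 in controls, a difference of 0.13 (SE 0.30) by its brighter probe and -0.26 (SE 0.29) by another. AFP was -0.04 in the authors' deposited table and -0.05 by quantile normalization. TTR, transthyretin, differed by -0.17 (SE 0.49). It turned above 0 with slide as a fixed block (0.03) but not with slide as a random block (-0.10). APOA1, the main protein of high-density lipoprotein, differed by 0.22 (SE 0.21) and APOA4 by 0.30 (SE 0.76). Of 12 apolipoproteins and lipid carriers 9 lay above 0 (median 0.14, and 0.06 under normexp). APOE had levels of 4.84, 4.93, 5.16 and 4.68 in runts and 4.32, 4.60, 4.57 and 4.58 in controls, so the groups did not overlap, and its difference was 0.38 (SE 0.26).

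Complement components lay on both sides of 0, with 8 of 20 above and 12 below (median -0.10) and 0 that passed. C8B (NM_001097451), the beta chain of the membrane attack component C8, had levels of 0.33, 1.59, 1.93 and 0.07 in runts and 2.07, 2.41, 1.65 and 2.60 in controls. Runt replicates 1 and 4 were far below all controls and runt replicate 3 lay within them, and the difference was -1.20 (SE 0.41, 95% interval -2.05 to -0.36, adjusted p = 1.00). The alpha chain gene C8A had levels of 4.60, 5.24, 5.23 and 4.29 in runts and 5.28, 5.55, 5.11 and 5.38 in controls, a difference of -0.49 (SE 0.30), or -0.31 without runt replicate 4. The gamma chain gene C8G ran the other way, with levels of 4.18, 3.25, 2.13 and 4.11 in runts and 3.37, 3.42, 2.44 and 2.70 in controls, a difference of 0.43 (SE 0.30). The 3 chains of 1 complex thus differed in sign, and runts 1 and 4 stood at the far end for each. C2, a protease of the classical pathway, differed by -0.65 (SE 0.36). Of 13 acute phase genes 7 lay above 0 and 6 below (median 0.05). HP, haptoglobin, differed by -0.61 (SE 0.32), and by -0.62 (SE 0.38) in another probe, while LBP, which binds bacterial lipopolysaccharide, differed by -0.69 (SE 0.38).

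Among 12 transcription factors of the liver 9 lay above 0 (median 0.17, and 0.15 under normexp). HNF4A, which directs hepatocyte differentiation, differed by 0.17 (SE 0.24). NR1I3, the xenobiotic receptor CAR, had levels of -1.49, -2.17, -1.81 and -1.99 in runts and -2.33, -2.27, -2.22 and -2.92 in controls, a difference of 0.57 (SE 0.40) without overlap of the groups. XBP1, a factor for secretory cells, differed by 0.23 (SE 0.13) and lay at -0.02 under normexp. NR1I2, the pregnane X receptor, and CYP7A1, which catalyses the first step from cholesterol to bile acids, were not well above background on any array of day 37.

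Genes of drug, steroid and bile acid metabolism differed by -2.21 (CYP2C49) to 0.96, with 15 of 24 above 0 and a median of 0.12. SULT1E1 (NM_213992), the estrogen sulfotransferase, had levels of -0.64, -0.82, -1.42 and -2.25 in runts and 0.05, 1.42, -1.24 and 1.15 in controls. Control replicate 3 lay among the runts, and the other controls lay above them, a difference of -1.63 (SE 0.71, 95% interval -3.10 to -0.16). Arrays of slides 1 to 3 alone gave -2.98 and those of slides 4 to 9 alone gave -0.81. ALDH2, the mitochondrial aldehyde dehydrogenase, had levels of 6.25, 6.70, 6.79 and 5.83 in runts and 6.76, 6.84, 6.58 and 6.69 in controls, a difference of -0.32 (SE 0.18), and -0.33 and -0.25 in its other probes. Without runt replicate 4 it was -0.14. GSTA1, a glutathione transferase, was well above background on 1 runt and 2 control arrays and differed by 0.13 (SE 0.94), which turned to -0.59 on slides 4 to 9 alone.

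Intermediary metabolism showed small differences. Of 9 genes of the urea cycle and amino acid breakdown 6 lay below 0 (median -0.05). OTC, ornithine transcarbamylase of the urea cycle, had levels of 1.76, 2.43, 2.53 and 1.50 in runts and 2.33, 2.78, 2.56 and 2.56 in controls, a difference of -0.51 (SE 0.24), or -0.32 without runt replicate 4. Runts 1 and 4 were the 2 lowest of the 8 for OTC, a split whose share over all features was not counted. GLUL, glutamine synthetase, differed by 0.54 (SE 0.31), with 3 further probes at 0.29, 0.34 and 0.51. FASN, fatty acid synthase, had levels of 7.11, 7.15, 7.41 and 7.65 in runts and 6.51, 6.89, 6.94 and 7.37 in controls, a difference of 0.40 (SE 0.19), and its other probes gave 0.41 and 0.49. Of 9 genes of fatty acid and triglyceride synthesis 6 lay above 0 (median 0.07, and -0.03 under normexp). Fatty acid oxidation (6 of 11 above 0, median 0.01), cholesterol synthesis (2 of 5, median -0.07), glycolysis (5 of 7, median 0.09) and oxidative phosphorylation (5 of 11, median -0.01) stayed near the median of all features, and the 4 genes of gluconeogenesis and glycogen that were measured lay between 0.03 and 0.28.

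In the growth axis, IGFBP2 (NM_214003), a binding protein that holds IGFs in fetal blood, had levels of 4.15, 1.81, 1.91 and 4.24 in runts and 2.63, 2.00, 1.49 and 1.94 in controls. Runts 1 and 4 were well above all controls, and runts 2 and 3 lay within the control range. The difference was 1.01 (SE 0.46, 95% interval 0.07 to 1.94, adjusted p = 1.00), and it was 0.63 without runt 1 and 0.61 without runt 4. The ligands did not show such a split. IGF2, the main fetal growth factor, had levels of 8.77, 8.61, 8.46 and 8.31 in runts and 8.70, 8.50, 8.11 and 8.35 in controls, a difference of 0.12 (SE 0.20), and its 4 other probes had differences of 0.20, 0.12, 0.06 and -0.00. IGF2 was -0.01 in the authors' deposited table and by quantile normalization, and -0.09 under normexp. IGF1 differed by -0.41 (SE 0.24), with an overlap of the groups, and by 0.16 under normexp. IGFBP3 differed by 0.16 (SE 0.22). The growth hormone receptor GHR was well above background on 1 runt and 2 control arrays and differed by -0.04 (SE 0.29), above 0 under several settings. Over the 14 genes of the axis 8 lay above 0 (median 0.03).

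Of 9 imprinted growth genes 5 lay above 0 (median 0.07, -0.01 by quantile normalization and -0.05 under normexp). NDN, the growth suppressor necdin, had levels of -0.13, -0.09, 0.07 and 0.31 in runts and -0.53, -0.49, -0.20 and -0.04 in controls, a difference of 0.36 (SE 0.16). MEST, an imprinted gene of the mesoderm, had levels of -3.03, -2.48, -2.94 and -2.09 in runts and -3.04, -3.15, -3.76 and -3.38 in controls, a difference of 0.70 (SE 0.39) without overlap by a narrow margin. DLK1, a surface protein of hepatoblasts, differed by -0.16 (SE 0.32) in its brighter probe and by 0.24 (SE 0.53) in another. FST, follistatin, which binds activin, had levels of 5.97, 5.42, 5.05 and 6.64 in runts and 4.19, 5.44, 4.29 and 5.73 in controls. Its difference was 0.86 (SE 0.40), and 0.97 (SE 0.40) by another probe. The difference was 0.11 on slides 1 to 3 and 1.06 on slides 4 to 9.

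Of 22 ribosomal protein genes 20 lay above 0 with a median of 0.16, and this median moved with the scaling, to 0.04 by quantile normalization and -0.00 under normexp. RPS21, with a difference of 0.63 (SE 0.26), had levels of 8.90, 8.87, 8.55 and 8.65 in runts and 6.91, 8.47, 8.36 and 8.73 in controls, with control replicate 1 far below the others. Its difference without that control was 0.22, and its other probes gave 0.09 and 0.00. Of 13 cell cycle genes 10 lay below 0 by small amounts (median -0.04). That median was 0.15 with slide as a fixed block, 0.03 as a random block and 0.09 without runt replicate 1. It stayed below 0 in the other alternatives. Genes of hypoxia (7 of 11 above 0, median 0.08), glucocorticoid response (5 of 8, median 0.03), unfolded protein stress (3 of 5, median 0.11), immediate early and heat shock response (5 of 8, median 0.02) and antioxidant defence (6 of 13, median -0.01) had medians from -0.01 to 0.11. PRDX6, a peroxiredoxin, differed by 0.38 (SE 0.18), and by 0.18 (SE 0.18) in another probe.

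**Figure D4:**
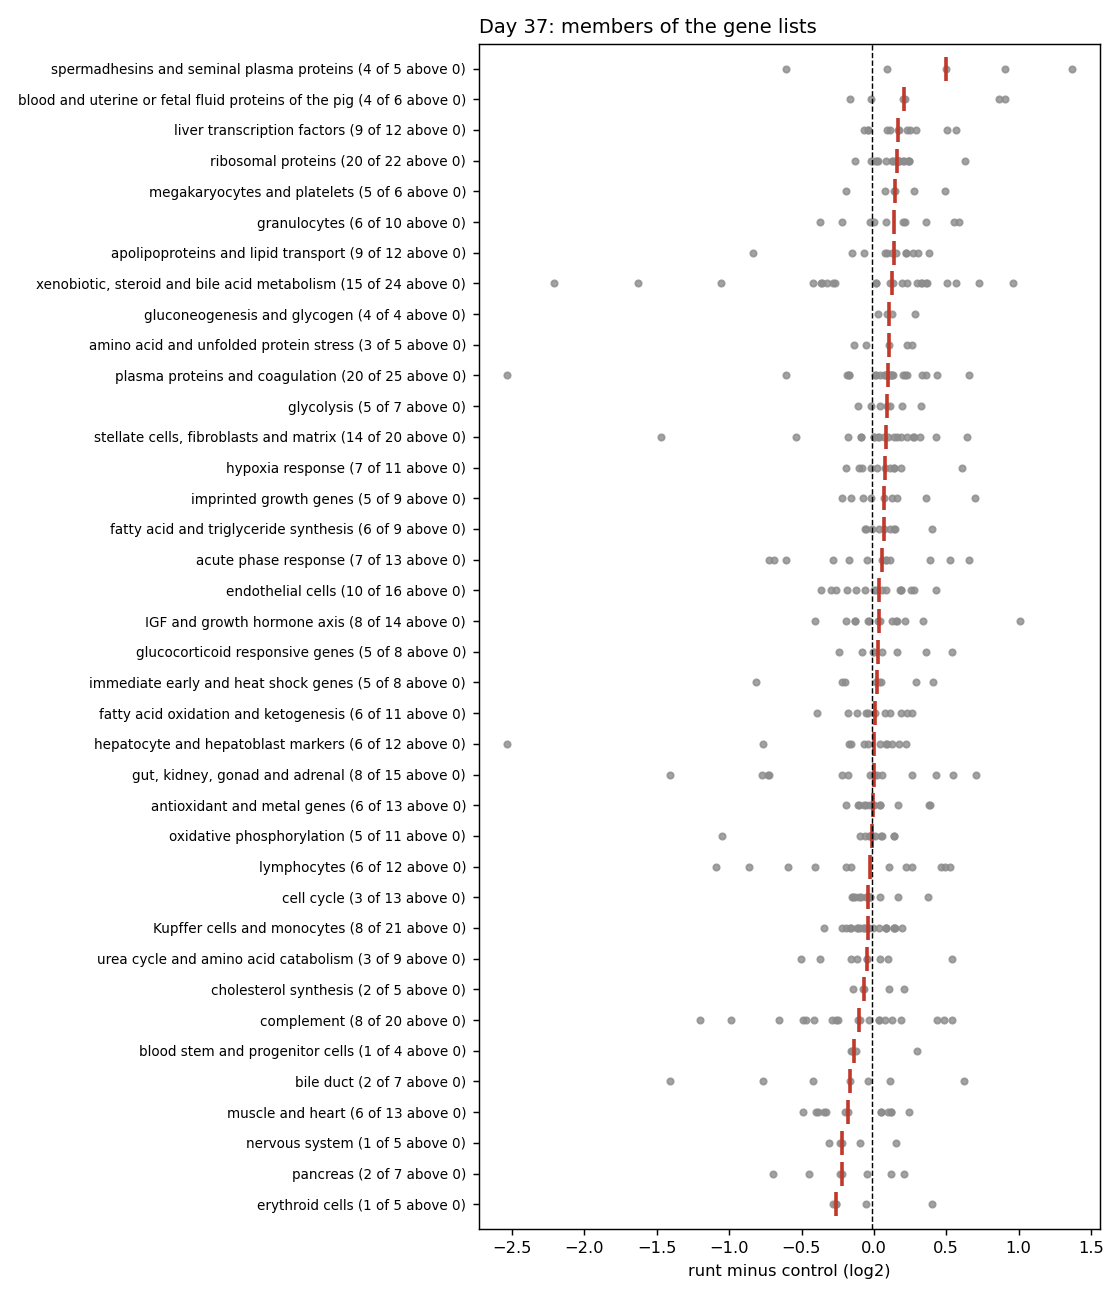
Differences between runts and controls at day 37 (horizontal axis, log2) for each measured member of the 38 gene lists (grey points), with the median of each list as a red tick and the median of all features as a dashed line. Lists are ordered by their median, and the share of members above 0 is beside each name. The medians run from -0.26 for erythroid cells to 0.50 for spermadhesins and seminal plasma proteins. ALB is the point at -2.53 in the lists of hepatocyte markers and plasma proteins.

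Blood-forming cells were the other main population to follow. Of 5 erythroid genes 4 lay below 0 (median -0.26), with a mean level of 2.65 to 3.33 in runts and 2.92 to 3.42 in controls, and the median was 0.11 with slide as a block. HBE1, embryonic epsilon globin, was the member above 0, with levels of 4.42, 4.82, 5.49 and 4.86 in runts and 4.45, 4.26, 5.11 and 4.19 in controls, a difference of 0.40 (SE 0.34). On slides 1 to 3 it was 0.99 and on slides 4 to 9 it was 0.02. The erythropoietin receptor EPOR differed by -0.26 (SE 0.30), and by 0.12 with slide as a block. Stem and progenitor markers (1 of 4 above 0, median -0.13) and platelet markers (5 of 6, median 0.14) had overlapping levels.

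Granulocyte genes had the largest spread of mean level between livers of a group among the 38 lists (SD within groups 0.88). Their mean level was 2.39, 1.20, 0.24 and 1.20 in runts and 1.95, 1.81, 0.33 and 0.39 in controls, and the runt median over 10 genes was 0.14 above the controls, with 6 of 10 above 0. That median had no settled direction. It was -0.15 without control replicate 3, -0.23 without control replicate 4 and -0.22 without runt replicate 1, and 0.65 with slide as a fixed block. NPG4, which encodes a protegrin peptide of pig neutrophils, had levels of 7.95, 7.43, 6.01 and 7.03 in runts and 7.64, 7.66, 5.56 and 5.35 in controls. PR39, an antibacterial peptide of the same cells, ranged from 3.60 to 5.38 in runts and from 3.44 to 5.24 in controls. The lowest NPG4 levels were in runt replicate 3 and control replicate 4. The differences were 0.55 (SE 0.53) and 0.59 (SE 0.49). The gelatinase MMP9 of neutrophils was at 0.44 in runt replicate 3 and 0.35 in control replicate 3, and differed by 0.36 (SE 0.54).

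Markers of other resident cells lay around 0. Of 21 genes of Kupffer cells and monocytes, the liver's macrophages, 8 lay above 0 (median -0.04), and CD14 differed by 0.08 (SE 0.23). Endothelial genes (10 of 16 above 0, median 0.04) included PECAM1, a junction protein of the vessel lining, at -0.36 (SE 0.18), and at -0.14 (SE 0.16) in another probe. Of 12 lymphocyte genes 6 lay above 0 (median -0.03), and 8 of the 16 on the array were not above background on any of the 8 arrays. VPREB1, the surrogate light chain of B cell precursors, was above background on 0 runt and 3 control arrays, and was at least 1.37-fold lower in runts (measured means -5.07 in runts and -3.97 in controls, adjusted p = 1.00). Under normexp its difference was 0.22, above 0, and on slides 1 to 3 alone it was -0.20, short of that bound.

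Of 20 matrix and stellate cell genes 14 lay above 0 (70.0%, against 47.9% of all features), with a median of 0.08 that was -0.04 without runt replicate 1. The member farthest from 0 was COL5A3 (NM_001105288), a chain of type V collagen. COL5A3 had levels of -3.98, -2.59, -4.61 and -4.03 in runts and -2.46, -1.46, -3.25 and -2.17 in controls. It was above background on 2 runt and 4 control arrays, and its difference was -1.47 (SE 0.43, adjusted p = 1.00). Each runt lay below the control of its own replicate number, but the numbers are not known to mark litters. With replicate number as a block the adjusted p was 0.225 in limma, which did not pass. Under normexp the difference was -0.17. DCN, the matrix proteoglycan decorin, differed by 0.64 (SE 0.52).

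Of 7 bile duct genes 5 lay below 0 (median -0.16). SOX9, the transcription factor of the ductal plate, had levels of -6.54, -6.03, -6.41 and -5.55 in runts and -5.46, -4.31, -4.66 and -4.48 in controls. It was above background on 0 runt and 1 control array, so no fold is given (adjusted p = 1.00). The cell adhesion gene CDH1, E-cadherin, which hepatoblasts share, had levels of 1.17, 2.05, 1.33 and -0.28 in runts and 2.09, 1.99, 1.80 and 1.45 in controls, a difference of -0.77 (SE 0.29), and -0.91 (SE 0.31) by another probe. Runt replicate 4 was the lowest by both, and without it the first probe gave -0.32. EPCAM, an epithelial adhesion protein, differed by -0.42 (SE 0.25), and its 2 other probes by -0.41 and -0.45.

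Markers of other tissues were read on the same arrays. Pancreas genes had a mean level of -2.84 to -2.16 in runts and -2.78 to -1.91 in controls, with 2 of 7 above 0 (median -0.22). PLA2G1B, the pancreatic phospholipase, was above background on all 8 arrays, at 2.02, 2.99, 3.45 and 2.82 in runts and 2.05, 2.81, 2.91 and 3.03 in controls, a difference of 0.12 (SE 0.49). CLPS, colipase, was lowest in replicate 4 of both groups and differed by -0.70 (SE 0.54). Muscle and heart genes (6 of 13 above 0, median -0.18), genes of gut, kidney, gonad and adrenal (8 of 15, median 0.00) and nervous system genes (1 of 5, median -0.22) had overlapping mean levels. Of 22 muscle genes on the array 8 were above background on none of the 8. Their part in the results above was not tested.

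Spermadhesins are small secreted proteins first known from boar seminal plasma. The list of spermadhesins and other seminal plasma proteins had the highest list median, 0.50 over 5 members with 4 above 0. PSP-I, a spermadhesin of the pig, had levels of -2.14, -1.84, -2.20 and -1.19 in runts and -2.55, -2.02, -3.11 and -3.32 in controls, a difference of 0.91 (SE 0.51), and 0.96 (SE 0.54) by another probe. SPMI differed by 1.37 (SE 1.09), and the runts spread from -0.93 to 0.82, against -2.89 to 0.25 in controls. AQN-1, whose value is the list median, differed by 0.50 (SE 0.70) and was not above background on all 8 arrays. Its difference was 1.74 on slides 1 to 3 and -0.08 on slides 4 to 9. CRISP2, a secretory protein of the male tract, was the member below 0, at -0.61 (SE 0.58). Of the slide sets, slides 1 to 3 gave a list median of 0.71 and slides 4 to 9 one of -0.08.

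Features without a gene symbol held the smallest p-values, and those named here were chosen after their values were seen. AK240246, a probe designed on a pig complementary DNA, had levels of 0.90, -0.32, -0.74 and 0.81 in runts and -2.70, -1.80, -1.23 and -2.12 in controls. All runts lay above all controls, with runts 1 and 4 the highest, and the difference was 2.12 (SE 0.38, 95% interval 1.34 to 2.91, adjusted p = 0.117). Without runt replicate 3 its adjusted p was 0.0219, and it passed in none of the other alternatives tried. EW355286, an expressed sequence tag, had levels of 1.31, 0.96, 0.97 and 1.24 in runts and 0.75, 0.66, 0.31 and 0.22 in controls, a difference of 0.63 (SE 0.13, adjusted p = 0.508). TC495152, a consensus of tags, was above background on 0 runt and 2 control arrays. In the main setting it was at least 1.04-fold lower in runts (adjusted p = 0.117 in limma, measured means -6.08 in runts and -4.44 in controls). Under normexp its difference was 0.19, above 0, so the bound does not hold there.

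Whether the runt livers of day 37 differed from their controls in another way than those of later days was tested as the difference at day 37 minus the mean difference of days 50, 70 and 110. For comparison, 19 features (0.0663%) passed between runts and controls at day 50, 0 (0%) at day 70 and 4 (0.014%) at day 110. In the test of day 37 against those days 0 features passed in limma (0%), with 432 (1.51%) at an unadjusted p under 0.05. The ALB difference was -2.73 at day 50, -0.36 at day 70 and -0.50 at day 110, and day 37 minus the mean of those days was -1.34 (SE 0.68, adjusted p = 1.00). The ALB level was 4.85 ± 1.11 in runts and 7.57 ± 0.41 in controls at day 50, and 7.28 ± 0.82 in runts and 7.65 ± 0.81 in controls at day 70 (SD, n = 4 each). At day 50 ALB itself had an adjusted p of 0.064 in limma, and did not pass. The CYP2C49 difference was -2.35 at day 50, -1.35 at day 70 and -0.26 at day 110. The SULT1E1 difference was -2.53, -2.03 and -2.11 on those days, and IGFBP2 differed by 1.44, 0.56 and 0.35. HSD17B2 differed by 0.65, 0.27 and 0.42, and PEMT by 0.75, 0.26 and 0.32. These genes thus had the same sign on all 4 days without passing on any.

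Other genes had a sign at day 37 that they did not keep. CCR1 differed by -0.31 at day 50, -0.48 at day 70 and -0.51 at day 110, against 0.71 at day 37. Day 37 minus the mean of the later days was 1.15 (SE 0.28), with an adjusted p of 1.00. CALCB differed by 0.46, 0.39 and 0.21 on the later days, against -0.66 at day 37, and day 37 minus their mean was -1.01 (SE 0.33, adjusted p = 1.00). The list of spermadhesins and seminal plasma proteins had a median of 2.39 at day 50, 0.42 at day 70 and 1.75 at day 110. Complement genes had medians of -0.90, -0.13 and -0.20 on those days. Over the 726 features with an unadjusted p under 0.05 at day 37, 77.4% had the same sign at day 50, against 61.2% of all features, and with slide as a block the shares were 82.2% of 963 such features and 62.2% of all. At day 70 the share was 61.2%, against 49.7% of all, and with slide as a block 50.6% and 50.0%. At day 110 the share was 66.9%, against 56.6%, and with slide as a block 40.5% and 45.5%. The arrays of day 37 shared 7 slides with those of day 50 and 8 slides with those of each later day. The array of the other day was of the opposite fetus type on 3 of these slides at day 50 and on 6 at each later day. With 1 array of day 37 on a slide, the slide block estimates day 37 through the arrays of other days. Its shares are therefore not independent checks between days.

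**Figure D5:**
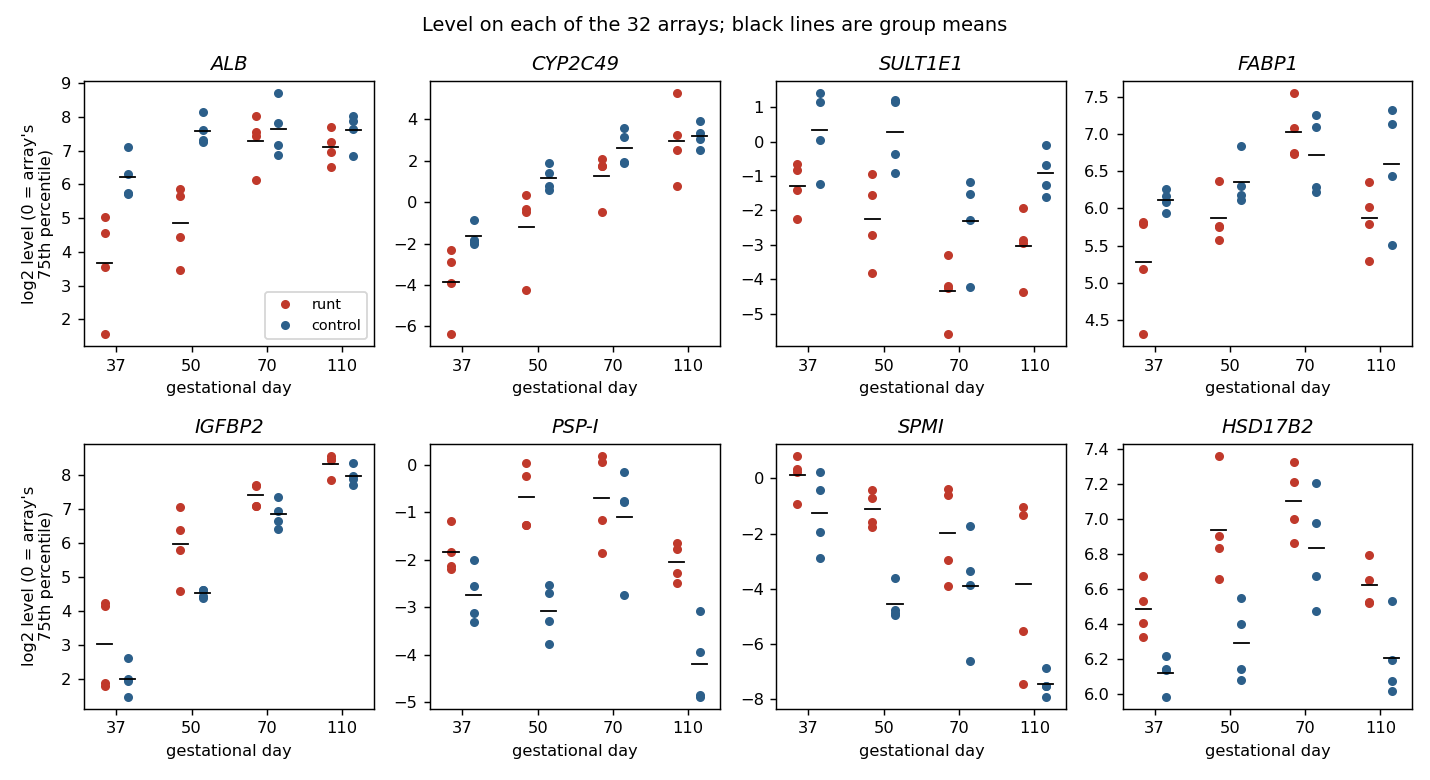
Levels of 8 genes (vertical axes, log2 relative to the 75th percentile of the array) on all 32 arrays by gestational day (horizontal axes), with runts in red to the left of controls in blue and group means as black lines. The 4 runts lie below the 4 controls in ALB at days 37 and 50 and overlap with them at days 70 and 110.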

How the data were processed

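Single-colour Agilent arrays of Cy3-labelled liver RNA were read with Feature Extraction 10.7.3.1. Per the file headers the authors' processed signal is a background-subtracted fluorescence intensity. A processed log2 table from the authors, deposited beside the scans and made in Partek per the submitters' processing notes, served as an alternative. Control spots and spots marked as outliers were left out, log2 intensities were set to 0 at the 75th percentile of each array, and spots of a probe were averaged. The number of arrays limits the precision.

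A probe was tested if well above background on at least 3 of 4 arrays of 1 of the 8 groups (29358 probes). Names came only from RefSeq accessions matched without version to the Sscrofa11.1 annotation (2683 of 43603 probes, 1904 symbols), and the brightest probe stood for a symbol. The design build of the array is not given in the sources used here, and no positions or sequences are printed. One mean per group was fitted over 32 arrays with limma 3.58.1 in R 4.3.3 (24 residual degrees of freedom, two-sided, Benjamini-Hochberg), and the script was tested on simulated data. Missing values (248 among the tested features) were dropped from a fit.

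Named genes were 10 per direction (the smallest p with groups that do not overlap and the higher group above background on at least 3 of 4 arrays, since 0 passed), a panel of 27 symbols of which 24 were measured, and up to 4 members of each of 38 lists (384 genes measured). Members and lists were chosen with earlier results of these data known. The labels do not say that replicate numbers mark litters. Deviations of same-numbered arrays correlated at 0.185, 0.128, 0.198 and 0.421. All were above 0.1, so a fit with replicate number as a block was given as an alternative. Other pairs reached similar values, 0.249 for runt 1 with control 2 and 0.199 for runt 3 with control 4. Runts 3 and 4 and control 4 were all on slides 1 to 3. In controls, TTR fell from replicate 1 to 4 at days 37, 50 and 70 alike. The correlations thus do not show that the numbers mark litters, and the main fit used no pairs. Slide numbers follow the order of the slide barcodes, and all day 37 arrays were scanned on 1 day at position 1. The alternatives were other values, normalizations, filters, slide terms, a replicate block and leaving out each array. The normexp alternative used median spot signals in place of the mean signals first planned, and an offset of 50. What the offset alone did to dim probes was not tested.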

Additional observations from a re-analysis of the deposited data

Results flagged for a closer look

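Of 238 sets of 4 replicate values examined (162 of single features and 76 of list means), 11 held an array far from the other 3 by Dixon's criterion, and chance gives about 1 in 20. In control replicate 4, HP was high at 7.51 (other controls 6.62 to 6.69), CALCB high at 1.27 (1.11 to 1.13), NR1I3 low at -2.92 (-2.33 to -2.22), CLPS low at -1.99 (-0.55 to -0.40), and the mean level of the acute phase list high at 1.42 (1.09 to 1.13). In control replicate 3, RIPPLY3 was high at 6.91 (-3.97 to -2.31), and the mean levels of fatty acid oxidation, 2.17 (2.33 to 2.34), and of unfolded protein stress, 5.28 (5.56 to 5.60), were low. In control replicate 1 APOE was low at 4.32 (4.57 to 4.60). The mean level of the glycolysis genes was low in replicate 1 of both groups, at 2.24 in the runt (other runts 2.72 to 2.74) and at 2.19 in the control (other controls 2.60 to 2.65). Their cause was not tested.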

How the results depend on the processing

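Under every alternative except leaving out an array, 0 features passed between runts and controls, also at an adjusted p under 0.10 in the main setting. Leaving out 1 array gave 0 to 2 features (0 to 1 higher, 0 to 1 lower). The 2 came without runt replicate 3, AK240246 (adjusted p = 0.0219) and the unnamed ENSSSCT00000011437. In the test against the other days, leaving out 1 array gave 0 to 1 features and keeping all dim probes gave 1. The count at an unadjusted p under 0.05, 726 at first, was 198 under normexp, 1248 with no filter on dim probes, 424 for probes above background on all 8 arrays, 1196 with a replicate block, and 452 (without runt replicate 4) to 1250 (without runt replicate 1). The replicate block changed no call.

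Of 81 named features 57 kept their sign under all alternatives, and the 24 others, none of them a call, did not; the cause was not tested. Their turned values were, in the authors' deposited table, AFP -0.044, IGF2 -0.0056 and GHR 0.080; by quantile normalization, AFP -0.047, IGF2 -0.0069 and GHR 0.081; under normexp, which moved the median of all features from -0.01 to 0.14, NPPC 0.24, IGF1 0.16, IGF2 -0.089, GHR 0.39, PLA2G1B -0.039, TC495152 0.19, TC499971 0.27, XBP1 -0.015, CRISP2 0.10, VPREB1 0.22 and SOX9 0.29. With slide as a fixed block they were TTR 0.029, APOA4 -0.14, GHR 0.060, EPOR 0.12 and NR1I2 -0.20, and as a random block GHR 0.0019. With the slide set as a term they were TTR 0.14 and GSTA1 -0.042. Slides 1 to 3 alone gave TTR 0.061, EPOR 0.051, CYP7A1 -0.33, CD14 -0.098 and RPS21 -0.13, and slides 4 to 9 alone gave TTR 0.080, IGFBP3 -0.016, GHR 0.18, GSTA1 -0.59, PLA2G1B -0.084 and AQN-1 -0.078. Leaving out 1 array turned CD14 (-0.024 to 0.17), DLK1 (-0.26 to 0.086), GHR (-0.25 to 0.12), GSTA1 (-0.36 to 0.51), MMP9 (-0.19 to 0.81), PLA2G1B (-0.096 to 0.39) and TTR (-0.42 to 0.023). Of 836 list medians 42 moved by more than the spread between arrays. Leaving out 1 array also turned the sign of many list medians. Among them were bile duct (0.0067 without control replicate 3), unfolded protein stress (-0.054 without control replicate 3) and progenitor genes (0.041 without control replicate 1). Glycolysis (-0.015 without control replicate 1) and nervous system genes (0.034 without runt replicate 4) turned as well. Other medians crossed 0 too, those of acute phase (-0.24 to 0.12), hypoxia (-0.061 to 0.20) and cell cycle genes (-0.13 to 0.092). So did those of endothelial (-0.060 to 0.17) and imprinted growth genes (-0.031 to 0.12). Kupffer cell, lymphocyte, hepatocyte and oxidative phosphorylation medians also crossed 0, and further lists did so. Signal over background limits NPPC, GHR, GSTA1, SOX9 and VPREB1, each above background on few or no arrays of a group.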
